A study of Mus musculus with 3 samples.

Results

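The nuclei described here are the fibroblast-gated nuclei of the lumbar dorsal root ganglion (DRG) that were left once 2 other fibroblast classes had been set aside. A nucleus was chosen if its barcode held more than 1000 detected genes, if it carried at least 3 UMIs (unique molecular identifiers, 1 per captured RNA molecule) summed over Pdgfra, Lum, Dcn, Col1a1 and Col1a2 from at least 2 of these genes, and if it had no UMI of Ccdc33, Pax9, Slc47a1 or Slc26a7. The sum over the 5 markers also had to be at least 2 times the sum over Snap25, Scn9a, Prx, Bcan, Flt1 and Notch3, which mark neurons, Schwann cells, satellite glia, endothelium and mural cells. This left 819 nuclei of 19259 that passed the gene minimum: 427 in the adult library, 270 in the first aged library and 122 in the second. Set aside were 325 nuclei with a UMI of Pax9 or Ccdc33, 315 with a UMI of Slc47a1 or Slc26a7 and 77 with UMIs of both pairs.

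A ganglion and its nerve are wrapped in layers of connective tissue. Endoneurial fibroblasts lie between the axons and glia, perineurial cells form a barrier of flattened sheets around them, and epineurial fibroblasts build the collagen-rich outer coat, which runs on into the meninges at the root. These cells secrete collagens, laminins and proteoglycans, and they also make complement proteins, cytokines and trophic factors. PDGFRA is a growth factor receptor of mesenchymal cells, decorin (Dcn) and lumican (Lum) are small proteoglycans that bind collagen fibrils, and Col1a1 and Col1a2 encode the chains of type I collagen.

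The tissue was the L3, L4 and L5 DRG of C57BL/6 mice with no treatment or engineered allele named, frozen before nuclei were isolated and prepared by PIP-seq, in which single nuclei are captured in droplets with barcoded particles. The groups were 1 adult library (3 months) and 2 aged libraries (21 months). The number of animals behind each library is not given in the sources used here.

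The libraries held 167664164, 95647106 and 69045987 UMIs in the order adult, aged 1 and aged 2, an order kept in every run of 3 values here. The nuclei over the gene minimum numbered 11518, 5130 and 2611 and held 53.8%, 58.4% and 54.5% of those UMIs. At most 1 barcode was shared between a pair of libraries among these nuclei. All 3 libraries are labelled male, but the chosen nuclei held 2531, 1645 and 1812 CPM (UMIs of a gene per 1000000 UMIs of the summed nuclei) of Xist, the RNA of the inactive X chromosome, and no UMI of the Y-linked genes Uty and Eif2s3y, so these genes went against the label in each library, while the study's methods list the aged mice as female. Another Y-linked gene, Ddx3y, was at 41.8, 21.6 and 12.7 CPM, below its level in free RNA of 67.2, 43.2 and 35.6 CPM, and it was called lower in the aged (log2 -1.29 ± 0.42, edgeR adjusted p = 0.0317). RNA outside nuclei was read from barcodes of 10 to 100 UMIs and is called free RNA here. The chosen nuclei were shallower in the adult library, with a median of 2378 UMIs against 3635.5 and 4174 in the aged libraries.

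The 5 marker genes chose the nuclei, so their levels are a description and were not tested. Dcn stood at 1756, 1141 and 1341 CPM and was seen in 88.5%, 75.6% and 72.1% of the nuclei. Col1a2 stood at 977, 1055 and 1037 CPM and was seen in 85.5%, 89.6% and 91.0%. Pdgfra, which names the nuclei, was seen in fewer nuclei, at 222, 120 and 123 CPM and in 31.4%, 24.4% and 26.2% of them. Among kept nuclei that did not meet the rule, Dcn was at 52.1, 57.0 and 34.0 CPM. Free RNA held 412, 310 and 288 CPM of Dcn and 194, 159 and 114 CPM of Col1a2, below the chosen nuclei in each library.

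The nuclei close to the limits of the rule held fewer transcripts of Ebf2, a transcription factor of mesenchymal cells, and of Gpc3, a cell surface proteoglycan, neither of which the rule reads. In the adult library, the 66 nuclei with a marker sum of 3 had 226 CPM of Ebf2 and the same level of the glial factor Sox10, whereas the 142 nuclei with a sum of 10 or more had 1667 CPM of Ebf2, 1130 CPM of Gpc3 and 78.9 CPM of Sox10. The 97 adult nuclei just outside, with a sum of 2 from 2 genes, had 166 CPM of Ebf2 and 204 CPM of Sox10. In aged 1, Ebf2 was at 224 CPM in the 36 nuclei with a sum of 3 and at 953 CPM in the 123 with 10 or more. In aged 2 it was at 0 in 11 nuclei and at 1197 CPM in 66. Just outside, with a sum of 2 from 2 genes, Ebf2 was at 328 CPM in 22 nuclei of aged 1 and at 295 CPM in 13 of aged 2. In both aged libraries this was above the nuclei with a sum of 3, unlike in the adult library.

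Clustering on genes outside the rule split the 819 nuclei into 7 clusters, and only part of them fitted the label. A cluster was named where at least 3 markers of a cell type were 2-fold or more above the other clusters and were seen in at least 5% of its nuclei, a cluster that met this for more than 1 fibroblast kind was named for those with most of their markers high, and a cluster that met it for unrelated cell types stayed unnamed. The study's own subtype lists were chosen on these libraries and did not count for naming. Fibroblast-like clusters held 432 nuclei (52.7%), glia-like clusters held 245 (29.9%), and the 1 unnamed cluster, called mixed, held 142 nuclei (17.3%). The fibroblast-like share of the chosen nuclei was 62.8%, 41.5% and 42.6%, and the glia-like share was 22.95%, 37.4% and 37.7%. The label therefore held for the fibroblast-like nuclei, and results are given for these as well as for all chosen nuclei. No doublet caller was run. Leading genes of the clusters are a description, because the same nuclei were clustered.

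The endoneurial fibroblast-like cluster held 226 nuclei. It was led by Bmp5, a secreted bone morphogenetic protein, by the glutamate receptor subunit gene Grin2b, by Plxdc1 and by the basement membrane collagen Col15a1, and 4 of 6 endoneurial markers were high in it, the transcription factors Osr2, Sox9 and Etv1 and the cell cycle inhibitor Cdkn2a. Ebf2 reached 2406 CPM there against 11 CPM of Sox10. The peri- and epineurial fibroblast-like cluster held 173 nuclei and carried both sets of markers, with 6 of 8 perineurial and 11 of 14 epineurial or adventitial markers high. The meningeal markers Foxc1, Zic1 and Zic4 (3 of 12) were high in it too. Finer clustering parted the sets, into 133 nuclei with 6 of 8 perineurial and 0 of 14 epineurial markers high and 40 nuclei with 0 of 8 perineurial and 13 of 14 epineurial markers high. Itgb4, an integrin of the perineurial basement membrane, was at 606 CPM in it against 66 CPM in the endoneurial-like cluster, and Pi16, which marks adventitial fibroblasts, was at 445 CPM against 10 CPM.

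The meningeal fibroblast-like cluster was the smallest, with 33 nuclei, of which 24 came from the adult library. It was led by Ranbp3l, Atp13a5 and Ptgds, the prostaglandin D2 synthase of the leptomeninges, and 10 of 12 meningeal markers were high, among them the retinoic acid producing enzyme Aldh1a2 at 893 CPM. Its Ebf2 level of 63 CPM was far below that of the other fibroblast-like clusters.

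The glia-like clusters carried collagen transcripts together with glial genes. The non-myelinating Schwann-like cluster (124 nuclei) had 1228 CPM of Col1a2 and 769 CPM of Col1a1 but 6 CPM of Pdgfra and 243 CPM of Dcn, beside 350 CPM of Sox10 and 1262 CPM of the sodium channel gene Scn7a. Kcnq5, Top2a and Cadm2 led it. Its leading genes included the cell cycle genes Top2a, at 166 CPM against a mean of 5.51 CPM in the other clusters, and Mki67, at 116 against 4.27 CPM. The myelinating Schwann-like cluster (44 nuclei) had 6 of 6 myelinating Schwann markers high and 375 CPM of Sox10. The satellite glia-like (SGC-like) cluster held 77 nuclei and 274 CPM of Sox10. The mixed cluster had 7 of 7 neuron, 5 of 6 myeloid, 4 of 4 erythroid and 3 of 6 endothelial markers high, with 2002 CPM of the neurofilament gene Nefl and 154 CPM of the macrophage receptor gene Mrc1. Finer clustering parted the neuron from the myeloid markers. Of the 142 nuclei, 115 fell in a cluster with 7 of 7 neuron, 4 of 4 erythroid, 3 of 6 endothelial and 1 of 6 myeloid markers high. The other 27 fell in a cluster with 6 of 6 myeloid, 3 of 6 lymphocyte, 2 of 4 erythroid and 0 of 7 neuron markers high, which also took in 9 SGC-like nuclei. The heat map of marker levels by cluster sets these values side by side.

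**Figure D1:**
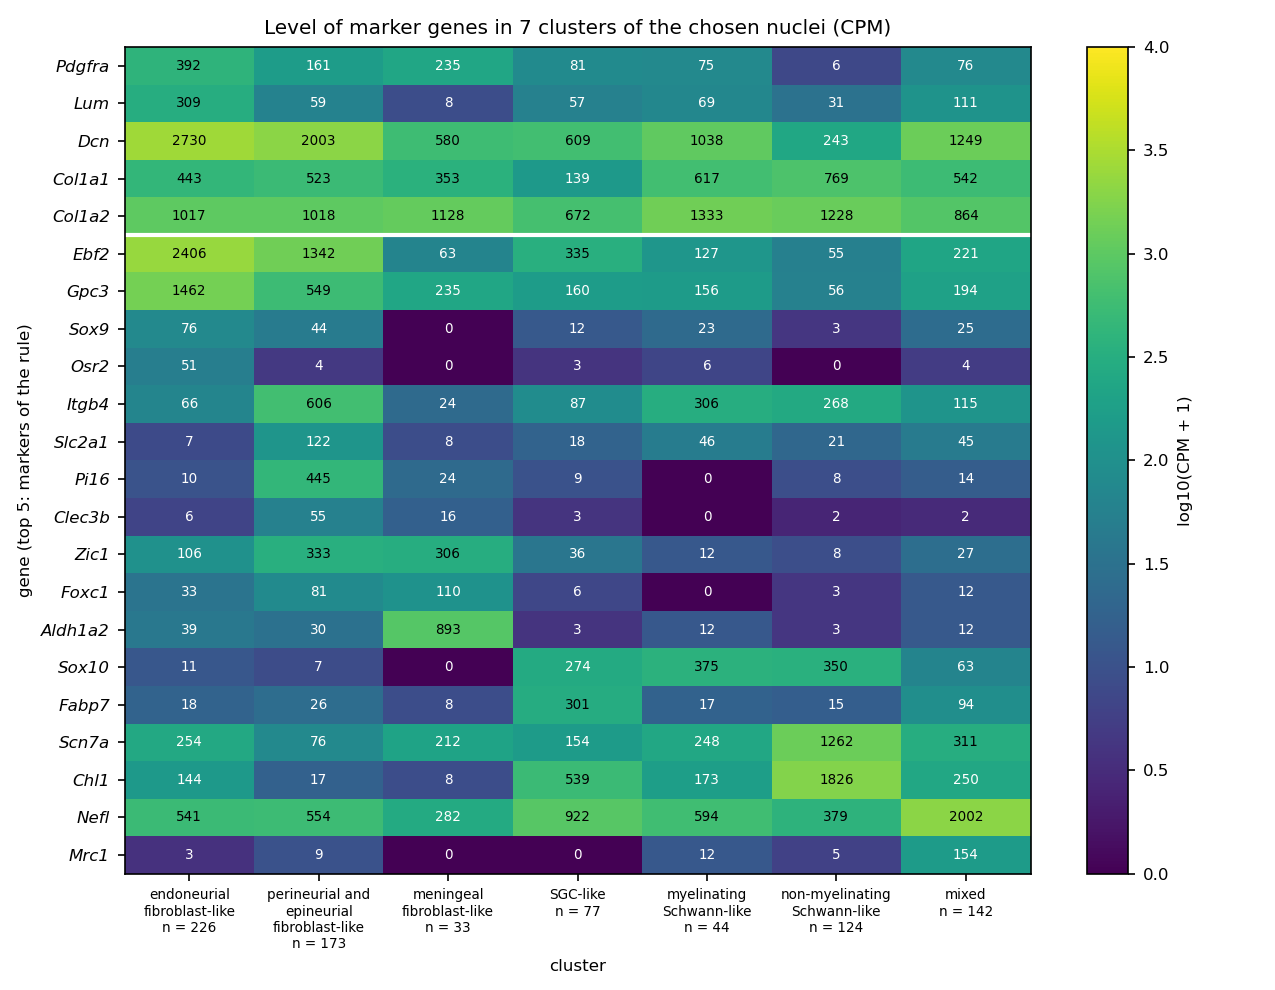
Level of 22 marker genes (rows) in the 7 clusters of the chosen nuclei (columns), printed in each cell as CPM over the 3 libraries and coloured by log10(CPM + 1). Ebf2 and Gpc3 are high in the endoneurial-like and the peri- and epineurial-like columns and low in the glia-like columns, whereas Col1a2 lies between 672 and 1333 CPM in every column.

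The first comparison asked whether these nuclei made up another share of the ganglion in aged mice. All chosen nuclei were 3.71% of the kept nuclei in the adult library (exact Clopper-Pearson 95% interval 3.37% to 4.07%) and 5.26% (4.67% to 5.91%) and 4.67% (3.90% to 5.55%) in the aged libraries, with an aged mean of 4.97% ± 0.418 (SD, n = 2). The fibroblast-like nuclei alone were 2.33% (2.06% to 2.62%), 2.18% (1.80% to 2.62%) and 1.99% (1.49% to 2.60%), with an aged mean of 2.09% ± 0.136 (SD, n = 2). The first share was higher in both aged libraries and the second was lower in both. The interval of the adult library overlapped that of aged 2 for all chosen nuclei and those of both aged libraries for the fibroblast-like nuclei. With 1 adult and 2 aged libraries the exact two-sided permutation test cannot go below p = 0.333, which was its value for all chosen nuclei, and it gave p = 0.667 for the fibroblast-like nuclei.

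The larger aged share lay in the glia-like nuclei, at 0.851%, 1.97% and 1.76% of the kept nuclei, and in the mixed nuclei, at 0.530%, 1.11% and 0.919%. The non-myelinating Schwann-like nuclei were 0.0955% (0.0477% to 0.171%), 1.50% (1.19% to 1.87%) and 1.38% (0.968% to 1.90%) of the kept nuclei, an aged to adult ratio of 15.1. The 11 adult nuclei of this cluster were shallower, at a median of 2338 UMIs against 4373 and 4658.5, and 63.6% of them sat at the lowest marker sum the rule admits against 14.3% and 11.1% in the aged libraries, while their summed marker level was 2071, 2378 and 2130 CPM. The part of depth in this ratio was not tested. The SGC-like nuclei went the other way, at 0.564%, 0.156% and 0.153%, a ratio of 0.274. The endoneurial-like nuclei were 1.15%, 1.29% and 1.07%, with the adult library between the aged ones. The peri- and epineurial-like nuclei were 0.972%, 0.780% and 0.804%, of which the finer perineurial-like part was 0.799%, 0.565% and 0.460% and the epineurial-like part 0.174%, 0.214% and 0.345%, with the adult interval overlapping both aged ones in each part. The meningeal-like nuclei were 0.208%, 0.117% and 0.115%. A higher gene minimum of 1500 put all chosen nuclei at 2.61% of the adult and a mean of 4.98% of the aged nuclei, and thinning each nucleus to 2000 UMIs put them at 3.302% and 4.29%, with 2009, 813 and 333 nuclei too shallow for it. Cluster shares were read from clusters built on genes that may themselves differ between ages, and they were not tested further.

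**Figure D2:**
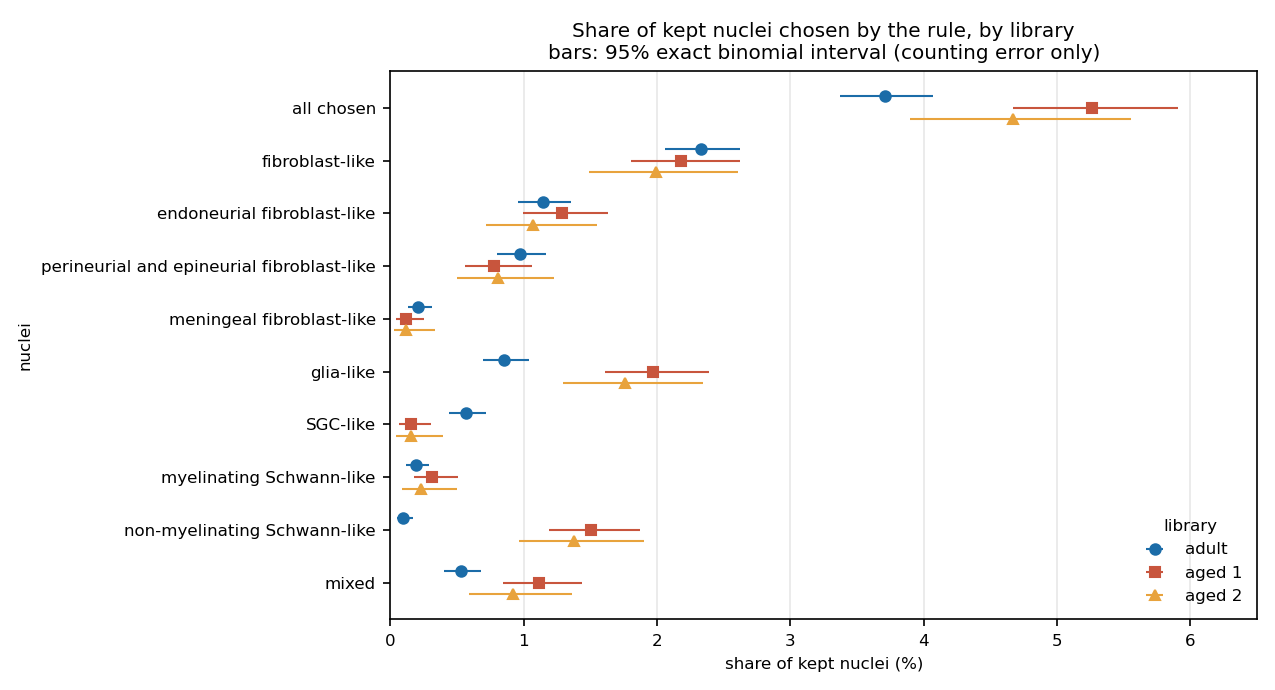
Share of the kept nuclei (x axis, %) taken by all chosen nuclei and by each named group of clusters, 1 point per library with its exact 95% binomial interval, which covers counting error only. All chosen nuclei lie at 3.71% in the adult and at 4.67% and 5.26% in the aged libraries, the fibroblast-like nuclei at 2.33% and at 1.99% and 2.18%.

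The second comparison asked which genes differed between adult and aged nuclei. The UMIs of each library's nuclei were added up, the sums went into the quasi-likelihood test of edgeR, p-values were adjusted by Benjamini-Hochberg across every gene tested, and a gene was called at an adjusted p under 0.05. The spread could be estimated from the 2 aged libraries alone, so the fit took the single adult library to be as variable as those, and age cannot be told apart from anything else that set the adult library apart. Each ± beside a log2 difference is a standard error derived from the edgeR test, which draws each gene's spread towards that of other genes. It can be smaller than the gap between the aged libraries. For Meg3 in the fibroblast-like nuclei the log2 difference was -2.19 without aged 1 and -1.30 without aged 2. Of 9642 genes tested in the fibroblast-like nuclei, 139 were called higher in the aged (1.44%) and 202 lower (2.1%).

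How many genes were called depended on the test. DESeq2 called 9 higher and 9 lower in the same sums, all of them among the 341 of edgeR, and 183 genes had an unadjusted p under 0.05. Scaling edgeR by total UMIs alone left 4 calls, Csmd1 higher and Malat1, Bc1 and Gm48594 lower, although 327 of the 341 kept an unadjusted p under 0.05. All 341 kept their sign under both settings. These genes were picked on the same sums, so neither count is separate support for the calls. Taking the fibroblast-like nuclei from the finer clustering gave 44 calls, 20 higher and 24 lower, in 244, 93 and 43 nuclei. The 52 nuclei left out met the marker minimum for no cell type there. In them 6 of 12 genes were high in each of the study's endoneurial and perineurial lists, which did not count for naming. The genes called by both edgeR and DESeq2 are described first, a choice made after their values were seen. The plot of call counts by setting shows these numbers.

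**Figure D3:**
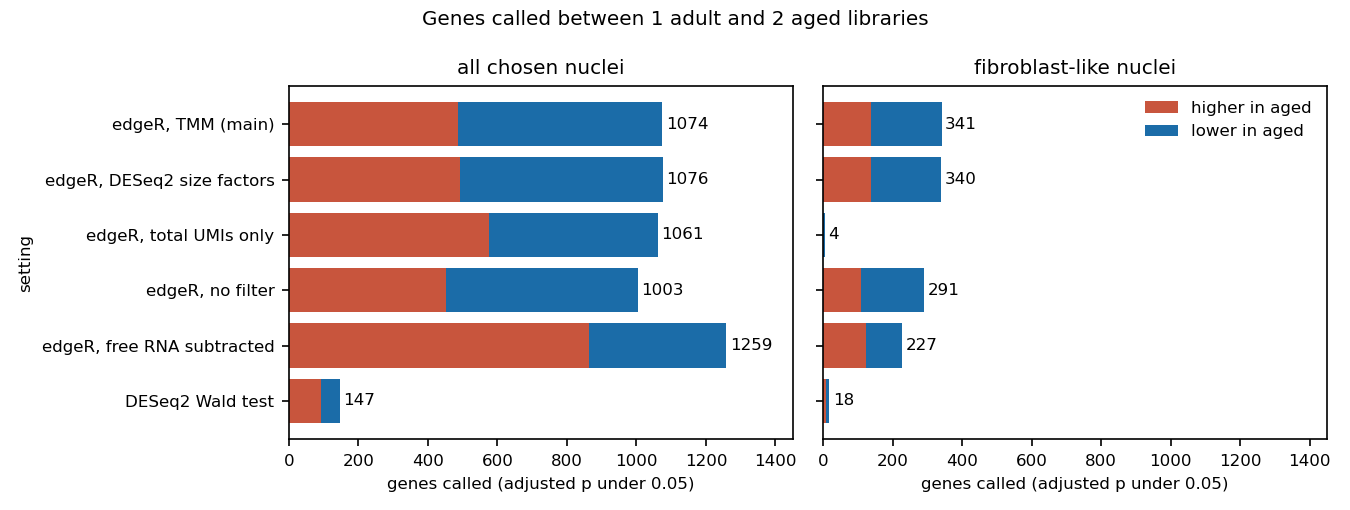
Number of genes called higher or lower in aged mice (x axis, genes at an adjusted p under 0.05) under 6 settings (y axis) for all chosen nuclei and for the fibroblast-like nuclei. In the fibroblast-like nuclei the calls go from 341 with edgeR and TMM to 18 with DESeq2 and 4 with total-UMI scaling.

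Genes higher in both tools included Col8a1, Reln, Unc5c, Gda and Csmd1. Col8a1 (chromosome 16:57624258-57754737, mm10), which encodes a short-chain collagen, stood at 463 CPM in the adult and at 1329 and 1276 CPM in the aged fibroblast-like nuclei, a log2 difference of 1.43 ± 0.20 (SE; edgeR adjusted p = 9.11e-10), against 88.3, 69.4 and 48.9 CPM in free RNA. Both aged libraries were above the adult and close to each other. It was higher in both aged libraries in the endoneurial-like nuclei (631, 1530 and 1854 CPM; log2 1.32 ± 0.28, edgeR adjusted p = 0.000291), and it stood at 410, 1182 and 734 CPM in the peri- and epineurial-like nuclei. Reln, the secreted matrix glycoprotein reelin, was at 230, 764 and 689 CPM (log2 1.60 ± 0.25, edgeR adjusted p = 9.18e-08), and it was mainly seen in the endoneurial-like nuclei, at 472, 1261 and 1118 CPM. Unc5c, a netrin receptor, was at 63.6, 281 and 445 CPM (log2 2.43 ± 0.35, edgeR adjusted p = 2.8e-09).

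Gda, which encodes guanine deaminase, was at 19.7, 135 and 186 CPM in the fibroblast-like nuclei (log2 2.93 ± 0.46, edgeR adjusted p = 8.75e-08), and it was at 13.2, 204 and 266 CPM in the endoneurial-like nuclei. Runx2, a transcription factor of bone and cartilage formation, was at 77.2, 480 and 237 CPM (log2 2.18 ± 0.34, edgeR adjusted p = 5.04e-08), but 1 nucleus carried 25.6% of its UMIs. Csmd1 (chromosome 8:15892537-17535586), a membrane protein with complement control repeats, was at 990, 3055 and 3317 CPM (log2 1.63 ± 0.14, edgeR adjusted p = 2.18e-26). Its rise was seen in the endoneurial-like nuclei, at 651, 3980 and 4472 CPM, whereas the non-myelinating Schwann-like nuclei held more of it in every library. Free RNA held 3240, 2616 and 2554 CPM of Csmd1, which is above the adult level of the fibroblast-like nuclei. Cmss1 was at 746, 1920 and 2008 CPM (log2 1.34 ± 0.17, edgeR adjusted p = 5e-12), and it was higher in aged free RNA as well, at 1777, 3769 and 6214 CPM.

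Of the 9 genes lower in both tools, all but Camk1d were also lower in the free RNA of both aged libraries. Malat1 (chromosome 19:5795690-5802672), an abundant nuclear RNA, fell from 45775 CPM to 21168 and 20122 CPM (log2 -1.21 ± 0.04, edgeR adjusted p = 1.18e-205), and free RNA held 24878, 14074 and 12835 CPM. Meg3, another long non-coding RNA, fell from 1754 CPM to 755 and 415 CPM (log2 -1.62 ± 0.18, edgeR adjusted p = 9.93e-16). Bc1, a small cytoplasmic RNA of neurons, was at 336, 2.18 and 7.29 CPM, and with 3 UMIs in the aged nuclei its aged to adult ratio was 0.0122 (counting interval 0.00249 to 0.0361). Its level in free RNA was 1258, 22.9 and 16.6 CPM. Mylk, the gene of myosin light chain kinase, was at 690, 190 and 157 CPM (log2 -2.04 ± 0.26, edgeR adjusted p = 8.64e-12), beside 1263, 333 and 336 CPM in free RNA, and all 7 clusters were lower in both aged libraries. Il31ra, an interleukin-31 receptor subunit, was at 720, 251 and 193 CPM (log2 -1.74 ± 0.25, edgeR adjusted p = 2.8e-09), and in free RNA at 1437, 1117 and 1378 CPM.

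Trpm3 and Ptgds were highest in the meningeal-like nuclei, which were 24 of 268, 6 of 112 and 3 of 52 fibroblast-like nuclei, and both were also lower in the aged within that cluster and within the endoneurial-like one. Trpm3 (chromosome 19:22139046-22995410), an ion channel gene, was at 6030, 1837 and 2795 CPM in the fibroblast-like nuclei (log2 -1.44 ± 0.11, edgeR adjusted p = 2.31e-37). Its level was 38110, 21347 and 25623 CPM in the meningeal-like cluster and 1222, 643 and 552 CPM in the endoneurial-like cluster, where it was also called lower (log2 -1.12 ± 0.28, edgeR adjusted p = 0.00642). Ptgds, a leading gene of the meningeal-like cluster, was at 2119, 236 and 539 CPM in the fibroblast-like nuclei and at 15495, 3572 and 6686 CPM in the meningeal-like ones. In the endoneurial-like nuclei it was at 311, 10.9 and 6.82 CPM. The part of the smaller meningeal-like share in these differences was not tested.

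**Figure D4:**
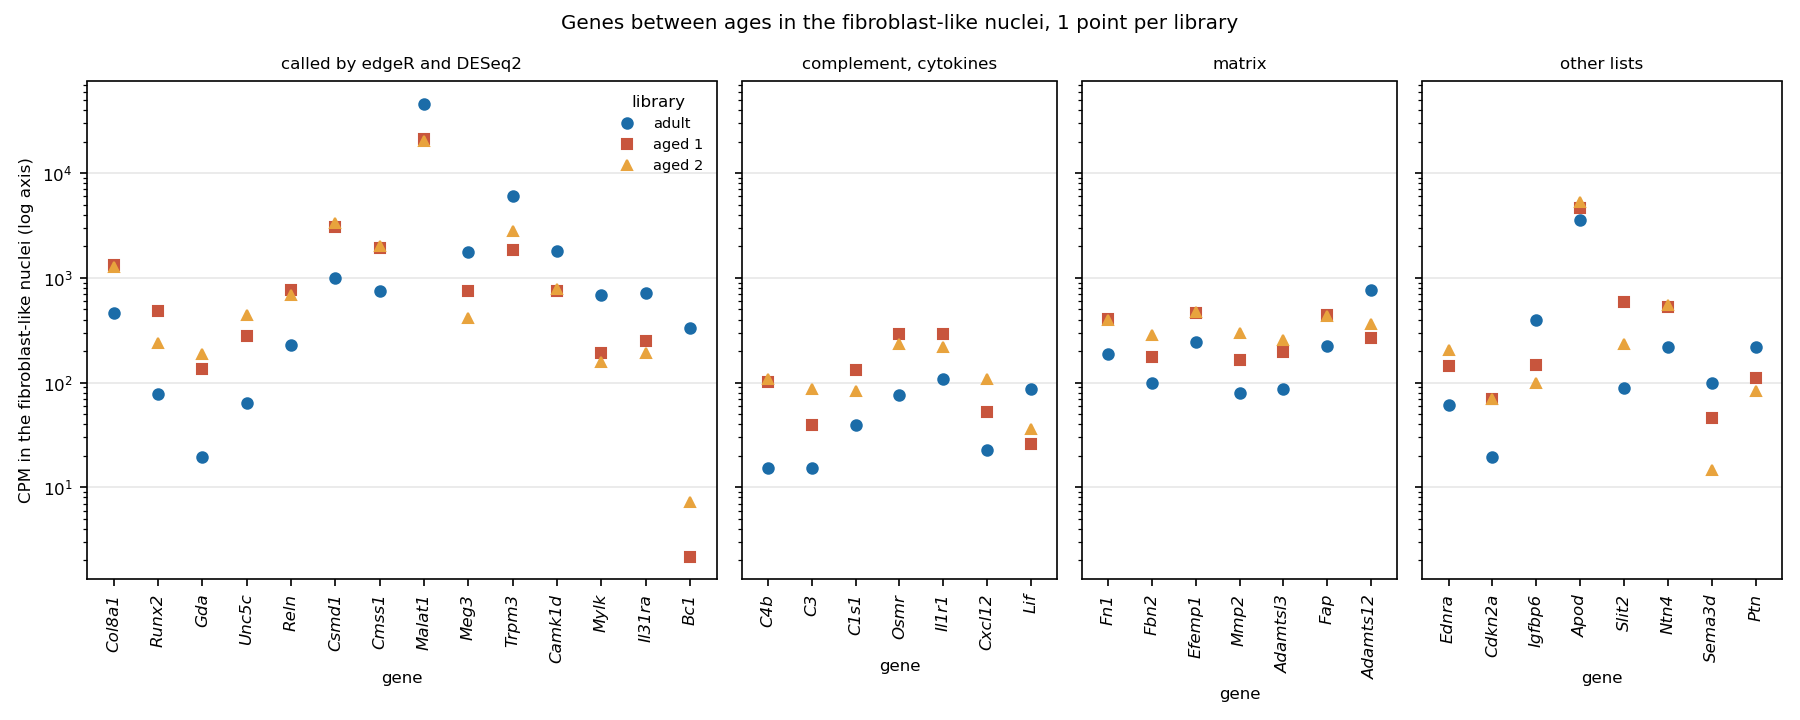
CPM (y axis, log scale) of single genes in the summed fibroblast-like nuclei, 1 point per library (adult, aged 1, aged 2). Col8a1 lies at 463 CPM in the adult and at 1329 and 1276 CPM in the aged libraries, and Malat1 at 45775 CPM in the adult and at 21168 and 20122 CPM in the aged libraries.

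Markers of other cell types were measured in the fibroblast-like nuclei too, and 3 of 7 neuron and 1 of 4 myelinating Schwann markers tested were called lower in the aged, beside 2.1% of all genes. The 7 neuron markers summed to 1857, 1314 and 627 CPM in these nuclei, against 9874, 13116 and 12699 CPM in free RNA, and the 3 called were Nefl (693, 484 and 175 CPM), Uchl1 and Tubb3. The myelinating Schwann markers summed to 731, 454 and 255 CPM. The satellite glia markers summed to 160, 116 and 62.0 CPM, the lymphocyte markers to 48.4, 26.2 and 21.9 CPM and the erythroid markers to 542, 524 and 157 CPM, each lower in both aged libraries. The sum over neuron, myelinating Schwann and erythroid markers stood at 21.4%, 12.7% and 6.78% of their level in free RNA. The non-myelinating Schwann markers summed to 277, 338 and 284 CPM, the myeloid markers to 51.5, 50.2 and 62.0 CPM, the endothelial markers to 150, 161 and 124 CPM and the mural markers to 215, 185 and 262 CPM, with no common direction. None of 3 satellite glia, 3 non-myelinating Schwann, 2 myeloid, 4 erythroid, 3 endothelial, 3 mural and 1 lymphocyte markers tested was called with edgeR. The part of this RNA in the age differences was not tested, but subtracting free RNA at those shares gave 227 calls, 122 higher and 105 lower, in place of 139 and 202, with 170 of the 341 genes among them.

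Complement and cytokine genes were among those called in the aged fibroblast-like nuclei. Of 9 complement genes tested 4 were higher and none lower, beside 1.44% higher and 2.1% lower over all genes, with a median log2 difference of 0.73 beside 0.03 over all genes tested. C4b, a component of the classical pathway, was at 15.1, 100 and 109 CPM (log2 2.71 ± 0.52, edgeR adjusted p = 2.59e-05), and in the endoneurial-like nuclei at 3.303, 116 and 130 CPM. That adult endoneurial-like value was 1 UMI. C3, the central component, was at 15.1, 39.3 and 87.5 CPM (log2 1.91 ± 0.56, edgeR adjusted p = 0.0226), and the protease gene C1s1 was at 39.4, 133 and 83.8 CPM (log2 1.44 ± 0.43, edgeR adjusted p = 0.0254). Of 14 cytokine genes tested 4 were higher (Osmr, Il1r1, Cxcl12 and Ccl2) and 1 was lower, Lif, beside the same 1.44% and 2.1%. Osmr, the receptor of oncostatin M, was at 75.7, 292 and 233 CPM (log2 1.75 ± 0.35, edgeR adjusted p = 0.000109), and Lif, a cytokine of the same family, at 86.3, 26.2 and 36.4 CPM (log2 -1.55 ± 0.46, edgeR adjusted p = 0.0247). None of these genes was called by DESeq2.

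Of 30 interferon-inducible genes 2 were higher in the fibroblast-like nuclei, beside 1.44% of all genes, with a median log2 difference of 0.56. In the endoneurial-like nuclei 3 of 21 were higher, Iigp1, Gbp4 and Nlrc5, beside 1.01% of all genes there, with a median of 1.43 beside 0.04. Nlrc5, an activator of class I genes, was at 12.1, 80.7 and 47.4 CPM (log2 2.37 ± 0.57, edgeR adjusted p = 0.00232). Gbp4, a guanylate-binding protein, was at 10.6, 93.8 and 7.29 CPM, so that only aged 1 was above the adult, and without aged 1 the difference was -0.63 on the log2 scale. None of 12 class I presentation genes was called, with a median of 0.31.

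Of the matrix genes called, Adamts12 alone was lower, and no fibrillar collagen was called. The median over 9 fibrillar collagens was 0.38 with none called, over 23 basement membrane genes 0.10 with 1 higher, over 30 proteoglycan and fibre genes -0.03 with 4 higher, and over 28 matrix remodelling genes 0.01 with 3 higher and 1 lower, beside 1.44% higher and 2.1% lower over all genes. Fibronectin (Fn1) was at 189, 406 and 397 CPM (log2 1.03 ± 0.29, edgeR adjusted p = 0.0164), and in the endoneurial-like nuclei at 119, 476 and 545 CPM. Mmp2, a gelatinase, was at 80.2, 164 and 299 CPM (log2 1.43 ± 0.36, edgeR adjusted p = 0.00404). Adamts12, another metalloprotease, was at 763, 268 and 361 CPM (log2 -1.35 ± 0.24, edgeR adjusted p = 3.18e-06). Tnc, the glycoprotein tenascin C, was at 4.54, 166 and 0 CPM, with 65.8% of its UMIs in 1 nucleus, so that without aged 1 both ages were at or under 3 UMIs.

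Signalling and stress lists held 1 to 5 calls each or none, beside 1.44% higher and 2.1% lower over all genes, and 1 or 2 calls in lists of this size are not read as a result about the list. In the endothelin system, whose peptides act on the receptors Ednra and Ednrb, Ednra (chromosome 8:77663031-77724464) was higher, at 60.5, 144 and 204 CPM (log2 1.44 ± 0.38, edgeR adjusted p = 0.00845), and in the endoneurial-like nuclei at 19.8, 72.7 and 211 CPM (log2 2.62 ± 0.64, edgeR adjusted p = 0.00462). Ece1, which cleaves the precursors, was at 186, 105 and 94.8 CPM and was not called (log2 -0.95 ± 0.34, edgeR adjusted p = 0.112), but it was called lower in the endoneurial-like nuclei (271, 116 and 81.8 CPM; log2 -1.51 ± 0.43, edgeR adjusted p = 0.0258). Across all chosen nuclei Ednra was at 42.6, 60.5 and 100 CPM and not called. Cdkn2a, the cell cycle inhibitor and senescence gene that also marks the endoneurial-like cluster, was at 19.7, 69.8 and 69.2 CPM (log2 1.75 ± 0.52, edgeR adjusted p = 0.0254), 1 higher call of 17 senescence genes with 1 lower, Igfbp6, at 398, 148 and 98.4 CPM.

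Of 15 neurotrophic and guidance genes 2 were higher, Slit2 and Ntn4, and 2 lower, Sema3d and Ptn, and the counts of this and the following lists stand beside 1.44% higher and 2.1% lower over all genes. Slit2, an axon repellent, was at 89.3, 585 and 233 CPM (log2 2.17 ± 0.32, edgeR adjusted p = 9.92e-09), with 27.4% of its UMIs in 1 nucleus and a difference of 1.27 without aged 1. Ntn4, a netrin of basement membranes, was at 218, 526 and 558 CPM (log2 1.25 ± 0.27, edgeR adjusted p = 0.000364). Of 18 lipid genes 3 were higher and 2 lower, with the sterol exporter Abca1 at 147, 284 and 339 CPM among the higher ones. Of 25 TGF-beta and BMP genes 1 was higher, the BMP regulator Bmper, of 20 PDGF, EGF, FGF and IGF genes 1 was lower, Fgf1, and of 16 immediate early and heat shock genes Egr1 was higher and Hspa8 and Klf2 lower. No gene was called among 26 Wnt and 11 hedgehog genes. Among the lists of subtype markers, 1 of 6 endoneurial, 0 of 7 perineurial, 0 of 11 epineurial or adventitial and 0 of 11 meningeal markers were called with edgeR. Their median log2 differences were 1.42, -0.61, -0.47 and -0.24 in that order, beside 0.03 over all genes tested. The endoneurial-like nuclei were 132 of 268, 66 of 112 and 28 of 52 fibroblast-like nuclei. The part of these shares in the medians was not tested. Of the study's own lists, 2 of 12 endoneurial genes were higher and 1 lower, 1 of 12 perineurial genes was higher and 2 lower, and 2 of 11 epineurial genes were lower. Ebf2 (1691, 1807 and 1939 CPM; log2 0.09 ± 0.15, edgeR adjusted p = 0.903) and Gpc3 (1090, 1052 and 671 CPM) were not called.

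Among the genes with the widest differences in the fibroblast-like nuclei were several that rested on few nuclei. Spp1, the secreted phosphoprotein osteopontin, was at 40.9, 469 and 160 CPM (log2 2.92 ± 0.38, edgeR adjusted p = 1.48e-11) with 33.2% of its UMIs in 1 nucleus. Mmp13, a collagenase, was at 0, 137 and 10.9 CPM, with 63 of 66 UMIs in aged 1 and 69.7% in 1 nucleus, so that without aged 1 both ages were at or under 3 UMIs. The kininogen gene Kng2 was at 7.57, 111 and 91.1 CPM (log2 3.65 ± 0.59, edgeR adjusted p = 2.05e-07). Ibsp, 1 of 2 bone markers tested, was at 1.51, 69.8 and 3.64 CPM with 79.4% of its UMIs in 1 nucleus. On the lower side, Ndufs5, a subunit of respiratory complex I, was at 69.6, 6.55 and 7.29 CPM beside 173, 19.4 and 23.9 CPM in free RNA, and Tbc1d22b was at 218, 43.6 and 32.8 CPM beside 857, 37.5 and 38.9 CPM.

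The endoneurial-like nuclei were the largest group of one fibroblast kind, and of 7211 genes tested 73 were called higher (1.01%) and 92 lower (1.28%). Besides C4b and Gda, the cystine transporter gene Slc7a11 was higher in them, at 29.7, 385 and 395 CPM (log2 3.59 ± 0.53, edgeR adjusted p = 7.1e-09), with both aged libraries above the adult and close to each other. Ntng1, a membrane-anchored netrin relative, was at 23.1, 356 and 191 CPM in them (log2 3.48 ± 0.58, edgeR adjusted p = 8.07e-07) but at 651, 615 and 237 CPM over all fibroblast-like nuclei, where it was not called. Col28a1, a collagen of peripheral nerve, was at 13.2, 134 and 211 CPM (log2 3.52 ± 0.68, edgeR adjusted p = 6.25e-05). Of the genes called in all fibroblast-like nuclei 121 were called here too, 35.5% of those 341 and 73.3% of the 165 in this cluster. Cdkn2a was not among them. None of 12 senescence genes and none of 5 endoneurial markers tested in this cluster was called, beside 1.01% higher and 1.28% lower over all genes.

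The finer clustering split the endoneurial-like nuclei into 3 clusters whose shares differed between the libraries, so that adult and aged values of this class came from different nuclei within it. The largest held 98, 30 and 3 nuclei, another 24, 19 and 9, and the third 10, 17 and 16. The second met the marker minimum for no fibroblast kind, with 1 of 6 endoneurial and 2 of 8 perineurial markers high, so it is endoneurial-like only in the coarser clustering. In this second cluster 6 of 12 genes were high in each of the study's endoneurial and perineurial lists, which did not count for naming. Csmd1 was higher in both aged libraries in each of the 3 clusters, at 605, 3824 and 11260 CPM in the largest, 297, 2761 and 2322 CPM in the next and 1878, 5411 and 4944 CPM in the third. Col8a1 was also higher in both aged libraries in each. C4b and Slc7a11 had higher values in both aged libraries in each, and Ptgds lower ones, but these rested partly on counts at or under 3 UMIs. C4b was at or under 3 UMIs in the adult nuclei of each cluster. In the 3 aged 2 nuclei of the largest cluster C4b and Slc7a11 were at or under 3 UMIs too. Other genes called in the endoneurial-like nuclei did not keep one direction in every cluster. In the 3 aged 2 nuclei of the largest cluster Reln (543, 1242 and 120 CPM) was below the adult and Trpm3 (1134, 648 and 1437 CPM) above it, and Ednra was at 0. Reln and Ednra were at or under 3 UMIs in these 3 nuclei, too few to read a direction from. Gda was seen mostly in the third cluster, at 83.4, 443 and 425 CPM, and had no UMI in aged 2 in the others. Ece1 was at 83.4, 49.2 and 87.1 CPM in the third. Col28a1 was seen mostly in the third cluster, at 0, 357 and 338 CPM, and Ntng1 mostly in the second, at 37.1, 1171 and 602 CPM. Fn1 was highest in the third, at 793, 1181 and 849 CPM, and stood at 74.1, 61.6 and 43.0 CPM in the second. These values rest on few nuclei and were not tested, nor was the part of the cluster shares in the age differences.

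Over all chosen nuclei, 487 of 12876 genes were called higher in the aged (3.78%) and 587 lower (4.56%). Most calls were instead higher among the 147 of DESeq2 and the 1259 that edgeR called after free RNA was subtracted. Of the 1074 genes first called, 258 were called in the fibroblast-like nuclei (24.02% of the first and 75.7% of the second list), all in the same direction, and 165 could not be tested there. The glial genes called followed the cluster shares above. Scn7a, of non-myelinating Schwann cells, was at 186, 624 and 493 CPM (log2 1.51 ± 0.24, edgeR adjusted p = 5.83e-08), and Fabp7, of satellite glia, was lower at 120, 21.6 and 30.2 CPM. Tnc was at 3.41, 163 and 170 CPM over all chosen nuclei (log2 5.48 ± 0.49, edgeR adjusted p = 2.49e-25), close to each other in the aged libraries, unlike in the fibroblast-like nuclei.

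Class I presentation and fibrillar collagen genes were called over all chosen nuclei but not in the fibroblast-like nuclei. B2m, the light chain of class I molecules, was at 158, 413 and 290 CPM over all chosen nuclei (log2 1.08 ± 0.25, edgeR adjusted p = 0.000468) and at 117, 159 and 106 CPM in the fibroblast-like nuclei (log2 0.16, edgeR adjusted p = 0.932). Col16a1 was at 47.8, 256 and 247 CPM over all chosen nuclei (log2 2.31 ± 0.30, edgeR adjusted p = 3.05e-12) and at 40.9, 54.6 and 76.5 CPM in the fibroblast-like nuclei. The counts were 6 higher of 16 class I genes, 12 of 40 interferon-inducible genes and 4 of 10 fibrillar collagens, against 0 of 12, 2 of 30 and 0 of 9, beside 3.78% of all genes higher in the first set and 1.44% in the second. The difference between the nucleus sets was not tested, because the smaller lies within the larger.

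The third comparison set the remaining nuclei beside the Pax9 or Ccdc33 class, by 1 fit of all 3 classes with the library as a block. The classes were cut on UMIs of 4 genes in the same nuclei, so genes that go with those 4 had to differ, and counts and values are given as a description. The remaining nuclei were shallower, at medians of 2378, 3635.5 and 4174 UMIs. The medians were 2771, 4359 and 5032 in the Pax9 or Ccdc33 class and 3661.5, 4614 and 5220 in the Slc47a1 or Slc26a7 class. A nucleus with no UMI of the 4 genes may be a shallow one of another class, and the part of such nuclei was not tested. Over all chosen nuclei 3.49% of 10491 genes were called higher and 3.22% lower, and the higher ones included glial genes such as Sox10, at 110, 150 and 169 CPM against 17.8, 7.22 and 0 CPM. With only the fibroblast-like nuclei taken from the remaining nuclei, and the other class left whole and not clustered, 26 of 8804 genes were higher (0.295%) and 24 lower (0.273%).

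Among the genes that differed from the Pax9 or Ccdc33 class were some perineurial and meningeal markers. Of 6 perineurial markers 3 were lower and none higher, with Itgb4 at 254, 310 and 251 CPM against 650, 837 and 691 CPM (log2 -1.41 ± 0.20) and Slc2a1, the glucose transporter of nerve barriers, at 62.1, 43.6 and 40.1 CPM against 173, 108 and 133 CPM. Clec1a and the tight junction gene Cldn11, of the study's perineurial list, were lower as well, a list that was chosen on these libraries. The meningeal genes Aldh1a2 (123, 87.3 and 135 CPM against 8.10, 24.1 and 30.3 CPM; log2 2.62 ± 0.49) and Slc13a3 were higher, 2 of 12 meningeal markers. Slc13a3 was at 89.3, 34.9 and 51.0 CPM against 0, 0 and 3.03 CPM, a ratio of 87.1 (counting interval 15.2 to 3477). Both were read mostly from the 33 meningeal-like nuclei of the 432, Aldh1a2 at 893 CPM there against 38.6 and 29.6 CPM in the endoneurial-like and the peri- and epineurial-like nuclei, and Slc13a3 at 674 CPM against 0 and 5.54 CPM. Igf1, a growth factor, was at 212, 137 and 164 CPM against 35.6, 33.7 and 72.7 CPM (log2 1.94 ± 0.34). Col15a1 was at 587, 563 and 751 CPM against 264, 238 and 327 CPM (log2 1.21 ± 0.19). Ebf2 was close in both, at 1691, 1807 and 1939 CPM against 1853, 2391 and 2234 CPM (log2 -0.23, edgeR adjusted p = 0.915).

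The Slc47a1 or Slc26a7 class lay further away. Over all chosen nuclei 8.86% of genes were called higher than in that class and 6.1% lower. For the fibroblast-like nuclei 612 of 8804 genes were higher (6.95%) and 440 lower (5.0%). All 12 genes of the study's endoneurial list were higher with a median log2 of 2.78 and all 12 of its epineurial list were lower with a median of -3.10, both lists chosen on these libraries. Ebf2 was at 258, 422 and 51.8 CPM in the other class (log2 2.91 ± 0.36).

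Basement membrane and hedgehog genes went both ways against the Slc47a1 or Slc26a7 class. Of 22 basement membrane and network collagen genes 9 were higher in the fibroblast-like nuclei and 4 lower (Col8a2, Col6a2, Col6a1 and Col8a1), and of 12 hedgehog genes 4 were higher and 3 lower, the co-receptors Cdon and Boc among the lower, beside 6.95% and 5.0% over all genes. Lama2, a laminin chain, was at 2768, 2457 and 2340 CPM against 302, 559 and 343 CPM (log2 2.72 ± 0.21). Ptch1, the hedgehog receptor, was at 713, 919 and 1002 CPM against 65.4, 135 and 25.9 CPM (log2 3.49 ± 0.29), whereas Hhip, a decoy receptor of the same ligands, was lower at 16.6, 4.36 and 10.9 CPM against 143, 110 and 104 CPM. Grin2b was at 148, 177 and 255 CPM against 6.54, 5.62 and 0 CPM. Aldh1a3, a retinoic acid producing enzyme, was at 34.8, 34.9 and 62.0 CPM and had no UMI in the other class.

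Lower genes included all of the study's epineurial list. Slc4a10, a bicarbonate transporter, was at 56.0, 107 and 102 CPM against 2513, 2213 and 4300 CPM (log2 -5.04 ± 0.26). Rspo3, a Wnt agonist, was at 6.05, 26.2 and 54.7 CPM against 492, 410 and 855 CPM (log2 -4.52 ± 0.41). Col12a1, a collagen that binds fibrils, was at 60.5, 118 and 76.5 CPM against 701, 779 and 1580 CPM. Penk, the enkephalin precursor, had no UMI in the fibroblast-like nuclei and 46.9, 59.0 and 58.3 CPM in the other class. Slc47a2 was also lower but lies 541 bases from Slc47a1, a gene of the rule. In each of these pairs no library of one class overlapped the other.

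**Figure D5:**
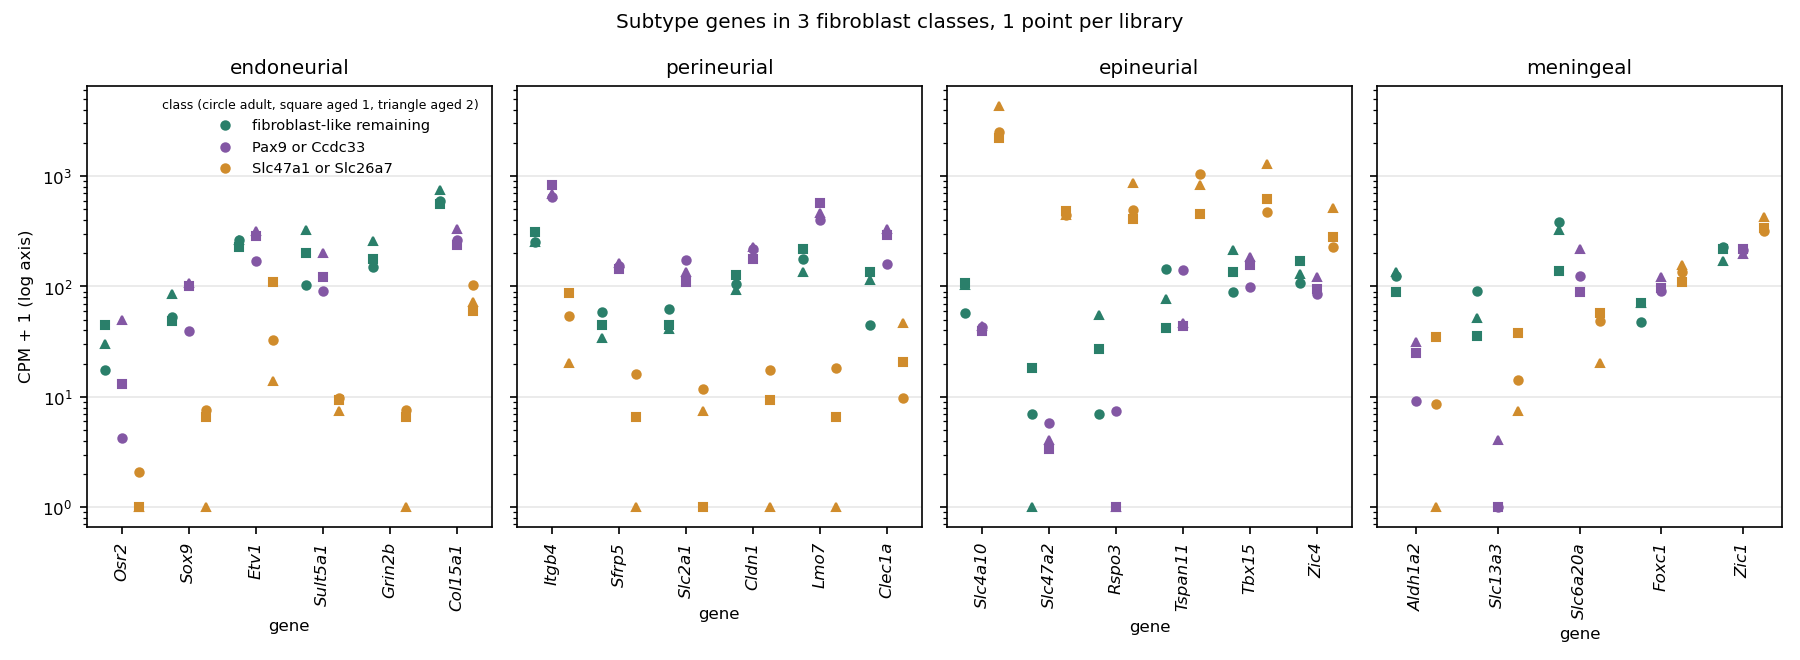
CPM + 1 (y axis, log scale) of subtype genes in the fibroblast-like remaining nuclei and in the 2 other fibroblast classes, 1 point per library (circle adult, square aged 1, triangle aged 2). Itgb4 is highest in the Pax9 or Ccdc33 class, and Slc4a10 lies far higher in the Slc47a1 or Slc26a7 class than in the fibroblast-like remaining nuclei.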

How the data were processed

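The authors deposited 1 matrix of raw UMI counts per library, with every barcode, made by PIP-seq processing on mm10 per the labels; the annotation and strand setting are not given in the sources used here, and GENCODE M21 matched 99.758% of the features. The chosen nuclei and the gene lists were picked with earlier results of these data known, and the study's subtype lists were chosen on these libraries. Counts were summed per library and tested with edgeR 4.0.16 (quasi-likelihood, TMM, low-count filter, Benjamini-Hochberg), with DESeq2 1.42.0 as an alternative, in R 4.3.3. The scripts were tested on simulated data. Nuclei were not used as replicates. The study calls the libraries biological replicates, and p-values measure the spread between them. Clusters used scanpy 1.11.5, 2000 variable genes outside the rule scaled within each library, 20 components, 15 neighbours and a resolution of 0.4 (0.8 as an alternative). These settings were chosen after the data were seen. Genes were named by rank: the 10 with the widest difference in each direction among those called with 50 or more UMIs and apart the same way in every library, at most 4 per list and the endothelin system. Some other genes were named outside this rule after their values were seen, among them genes called by both edgeR and DESeq2. Intervals and the floor of 3 counts cover counting error only. Some genes are not reported here.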

Additional observations from a re-analysis of the deposited data

Results flagged for a closer look

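Both aged libraries moved one way in some groups of clusters and the opposite way in others, when each group was taken as a share of the kept nuclei. The aged to adult ratio of that share was 0.897 for the fibroblast-like nuclei and 2.19 for the glia-like nuclei. Within the glia-like nuclei it was 0.274 for the SGC-like and 15.1 for the non-myelinating Schwann-like nuclei. In the finer clustering it was 0.642 for the perineurial-like and 1.61 for the epineurial-like part of the fibroblast-like nuclei, whose intervals overlapped between each aged library and the adult. These differences between groups were not tested, and with 1 adult library the exact permutation test of a share cannot go below p = 0.333.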

How the results depend on the processing

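No paired analysis was possible because the age comparison has 1 adult library and 2 aged libraries that share 1 replicate number. Counts are all genes called under a setting, whichever genes they are. Between ages over all chosen nuclei, 1074 genes were called, against 147 with DESeq2 (63.3% higher in place of 45.3%), 331 after thinning, 483 under a stricter marker rule, and 1259 after free RNA was subtracted (68.5% higher), of which 147, 297, 451 and 509 were among the 1074. The clusters gave 341 (fibroblast-like), 44 (finer clustering) and 165 (endoneurial-like). In place of the 341 there were 18 with DESeq2, 4 with total-UMI scaling, 227 with free RNA subtracted (53.7% higher in place of 40.8%), 44 with finer clusters and 165 in the endoneurial-like cluster, of which 18, 4, 170, 44 and 121 were among the 341. Leaving out an aged library left 1 against 1, values with no test, in which 338 of the 341 and 1070 of the 1074 had the same sign both times, genes of few UMIs included. These genes were called on the same libraries, and both comparisons use the same adult library, so the shared signs are not separate support for the calls.

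Without the library block, 217 genes in place of 704 were called against the Pax9 or Ccdc33 class and 854 in place of 1570 against the Slc47a1 or Slc26a7 class. In place of 704 there were 1160 with no filter, 223 thinned, 54 under the stricter rule and 220 with free RNA subtracted, and 50, 64 and 351 in the fibroblast-like, finer and endoneurial-like clusters. There were 209 calls without aged 1, 319 without aged 2 and 543 without the adult library, of which 200, 294 and 432 were among the 704. In place of 1570 there were 721 thinned, 481 stricter, 858 with free RNA subtracted and 894 in the finer clusters, and 767 without the adult library, 1037 without aged 2 and 1052 without aged 1. The aged minus adult share of 1.26 percentage points became 2.37 and 3.20 over 1500 and 2000 genes, 0.578 under the stricter rule, -0.239 in the fibroblast-like and -0.389 in the finer clusters, and 0.965 to 1.56 without an aged library.

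Single genes turned sign in a few settings. In the fibroblast-like nuclei, Gbp4 was at -0.63 without aged 1 and 3.04 without aged 2. Tnc, Mmp13 and Ibsp could be given no value without aged 1, because both ages were then at or under 3 UMIs. The uncalled Ebf2 difference was -0.14 with free RNA subtracted and -0.0785 in the finer clusters, and 0.27 against the Pax9 or Ccdc33 class in the endoneurial-like nuclei. In the endoneurial-like nuclei B2m was at -0.0447 between ages and Ntng1 at 3.48. Of the 381 values with a test that the alternatives gave for genes named in the fibroblast-like nuclei, 235 kept their direction and their side of the threshold and 141 kept their direction only, most of these under DESeq2, total-UMI scaling or the finer clusters. The causes were not tested. Depth limits the sparse genes, such as those read from fewer than 10 UMIs in a library.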
